A study of Mus musculus with 9 samples.

Results

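The genes of sterol synthesis, uptake and efflux were followed in mouse embryonic fibroblasts (MEFs) of 3 genotypes, which differ in the ER thiol oxidases ERO1α and ERO1β and in the ER peroxiredoxin PRDX4. The list held 33 genes: the enzymes that make mevalonate and turn it into cholesterol, the SREBP transcription factors with the proteins that control them, and the LXR nuclear receptors with targets that export sterol or limit its uptake. A gene was taken as measured where a probe set of the array carried its symbol and no other, and the brightest such probe set over the 9 arrays was used. By this rule 30 of the 33 genes were measured, among 19938 genes in all, and Acat2, Soat1 and Nr1h2 were not analysed here.

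Cholesterol is made in the ER from acetyl-CoA by way of mevalonate, squalene and lanosterol. When the ER membrane is poor in sterol, SCAP carries the SREBPs to the Golgi, where they are cleaved, enter the nucleus and switch on the synthesis genes, whereas in sterol-rich cells the INSIG proteins hold SCAP in the ER. LXRs act on the opposite side: bound by oxysterols, they turn on genes such as Abca1, whose product moves cholesterol out of the cell. Fibroblasts run both branches and are a classical system for the study of this feedback.

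Wild-type (WT) MEFs were compared with an ERO1alpha and beta double mutant (DM) and with a triple mutant that adds the PRDX4 KO (TM), with 3 arrays of each genotype. All cells carried the C57B/L6 background and were transformed with T antigen, and they were grown in DMEM with non-essential amino acids and Glutamax. The study's methods describe both primary MEFs and MEFs immortalized with T antigen, and do not say which were used for the arrays. By its label the reference is wild type, but the study's methods describe control MEFs heterozygous for the Ero1α allele and homozygous for the Ero1β allele, so the WT arrays may come from cells with mutant Ero1β as well. No source states whether the 3 arrays within a genotype trace back to separate embryos or cultures, so p-values reflect array-to-array spread alone, and that spread may be technical.

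The labels were checked on the mutated genes. On the log2 scale Ero1a was 11.84 to 11.88 in WT arrays, 9.41 to 9.52 in DM and 8.98 to 9.12 in TM, and Prdx4 was 10.44 to 10.66 in WT, 10.45 to 10.88 in DM and 5.96 to 6.75 in TM. Ero1b lay between 7.52 and 8.02 in all 9 arrays, with log2 fold changes against WT of 0.055 in DM and 0.29 in TM. Its signal was thus not lower in the mutants and gave no check of the Ero1b part of the labels. The X-inactivation transcript Xist was 12.50 to 12.63 in DM and 5.64 to 5.83 in the other arrays. Array medians were 7.62 to 7.72. Of 10 fibroblast markers, 8 were above the median signal in WT and DM and 9 in TM. Their calls against WT went both ways in DM and only upward in TM. Against WT on the log2 scale, Pdgfra (-1.91) and Col1a2 (-1.71) fell in DM while Pdgfrb (1.18) and Dcn (1.14) rose. The 3 DM arrays of Dcn hold an identical value. In TM Thy1 (2.93), Lum (2.06), Dcn (1.83) and Pdgfrb (1.23) rose. Of 6 leukocyte markers 2 were above the median signal in every genotype. Cd68 was 9.22 in WT, 8.93 in DM and 9.19 in TM, and Cd14 was 8.02, 7.94 and 8.07. The leukocyte marker Ptprc was dim, at 5.73 to 5.92. Of 6 adipocyte markers 1, Pparg, was above the median signal in every genotype, while Adipoq was dim at 5.62 to 5.78. Of 6 epithelial markers 3 rose in DM (Krt18, Cdh1 and Krt14), with Krt18 at 7.51 in WT, 10.20 in DM and 7.47 in TM. Krt19 was at -0.40 and Epcam at -0.34 in DM, both uncalled, and Krt19 fell by 1.81 in TM. The part of these differences in the results below was not tested. In bulk RNA, fewer cells of a type and less RNA per cell cannot be told apart.

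Sequences before the start sites of some of these genes show what the synthesis genes have in common besides their enzymes. RefSeq windows of 300 bases, 250 before and 50 after each annotated start (GRCm38.p6), were found for 25 of the 30 measured genes. They were searched on both strands for CCAAT, the box bound by NF-Y, a factor that works beside SREBP at many sterol genes, and for TCACCCCAC, the core of a sterol response element, with TCACNCCAC as a looser form that contains it. CCAAT was present in a window of 16 of the 16 synthesis genes with an entry and in 5 of the 9 other members, against 41.7% of the 15614 measured genes with an entry. TCACCCCAC was found at Hmgcs1 alone among these 25 genes, against 0.634% of the measured genes, and so was TCACNCCAC, against 1.4%. A match is a description of these letters and no proof of binding, and a gene with several starts had several windows in which to match.

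The 150 bases just before the first annotated start are printed 5′ to 3′ on the gene's strand for 4 synthesis genes that fell in DM and for Abca1 and Nr1h3, which rose. Capitals mark the CCAAT box, whose letters read as their reverse complement where the box lies on the opposite strand, and at Hmgcs1 also TCACCCCAC, the only capitals of that length. In GRCm38.p6 the stretches lie at chr13:119690201-119690350 (plus strand) for Hmgcs1, chr13:8885456-8885605 (plus) for Idi1, chr8:64733579-64733728 (minus) for Msmo1, chr1:169969206-169969355 (minus) for Hsd17b7, chr4:53159896-53160045 (minus) for Abca1 and chr2:91195117-91195266 (minus) for Nr1h3.
Hmgcs1: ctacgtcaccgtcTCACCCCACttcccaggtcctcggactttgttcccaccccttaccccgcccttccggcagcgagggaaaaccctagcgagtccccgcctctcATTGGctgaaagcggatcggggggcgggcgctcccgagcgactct
Idi1: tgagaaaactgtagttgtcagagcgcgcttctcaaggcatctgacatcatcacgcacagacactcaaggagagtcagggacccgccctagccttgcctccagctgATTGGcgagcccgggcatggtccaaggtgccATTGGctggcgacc
Msmo1: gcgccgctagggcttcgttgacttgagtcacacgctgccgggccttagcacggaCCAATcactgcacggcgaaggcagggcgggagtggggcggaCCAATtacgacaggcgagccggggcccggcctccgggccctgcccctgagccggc
Hsd17b7: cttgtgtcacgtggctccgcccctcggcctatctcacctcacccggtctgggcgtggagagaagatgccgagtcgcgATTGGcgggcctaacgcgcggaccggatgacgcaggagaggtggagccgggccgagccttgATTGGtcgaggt
Abca1: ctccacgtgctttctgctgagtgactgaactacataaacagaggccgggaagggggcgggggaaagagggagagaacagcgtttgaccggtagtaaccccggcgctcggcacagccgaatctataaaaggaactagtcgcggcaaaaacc
Nr1h3: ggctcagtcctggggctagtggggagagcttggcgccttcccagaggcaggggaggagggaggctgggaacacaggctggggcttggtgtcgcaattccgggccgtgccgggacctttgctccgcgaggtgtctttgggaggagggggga
Idi1, Msmo1 and Hsd17b7 each hold 2 CCAAT boxes in the stretch and Hmgcs1 holds 1, while Abca1 and Nr1h3 hold 0 there. The printed genes are a selection. In the longer windows, members within 1.5-fold of WT in DM also held the box: Ebp 2, Ggps1 3, Acly 1, Insig2 3, Srebf1 2, Srebf2 1 and Mylip 3. Scap and Apoe, likewise within 1.5-fold, held 0. Members that fell in DM held from 1 (Lss among them) to 5 (Mvk). Whether the box goes with the fall was not tested.

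Cholesterol synthesis genes fell almost along the whole pathway in DM MEFs. Of the 19 synthesis genes measured, 16 were lower than in WT, and their median log2 fold change was -0.86, a 1.81-fold lower level. A gene was called at an adjusted p under 0.05 (limma over all genes, Benjamini-Hochberg) with a change over 1.5-fold. By that rule 18 of all 30 members were lower in DM, where 5.67% of all genes tested were lower. Only 2 members were higher, where 5.28% of all genes were higher, so the count of rises is near that share. The median over the 30 members was -0.72 and that over all genes 0.025. DM and WT cells also differ in Xist and in epithelial and fibroblast markers. The ERO1 mutations and other differences between these cell populations therefore cannot be told apart.

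In the TM MEFs the fall was smaller. Of the 19 synthesis genes 8 were called lower, with a median log2 fold change of -0.48, or 1.4-fold lower, and all 19 had a negative log2 fold change. Over the 30 members 11 were lower, against 3.56% of all genes, and 3 higher, against 5.59%, with a median of -0.41 beside -0.029 over all genes. At an adjusted p under 0.05 with no fold limit 20 members were lower, against 18% of all genes. With cyclic loess normalization 7 of the 11 falls were still called, since Ebp, Insig1, Insig2 and Srebf2 then lay within 1.5-fold. DM and TM were compared with the same WT arrays, so their values against WT are not independent of each other. TM and WT cells also differ in fibroblast markers and in the epithelial marker Krt19. The mutations and other differences between these cell populations therefore cannot be told apart here either.

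**Figure D1:**
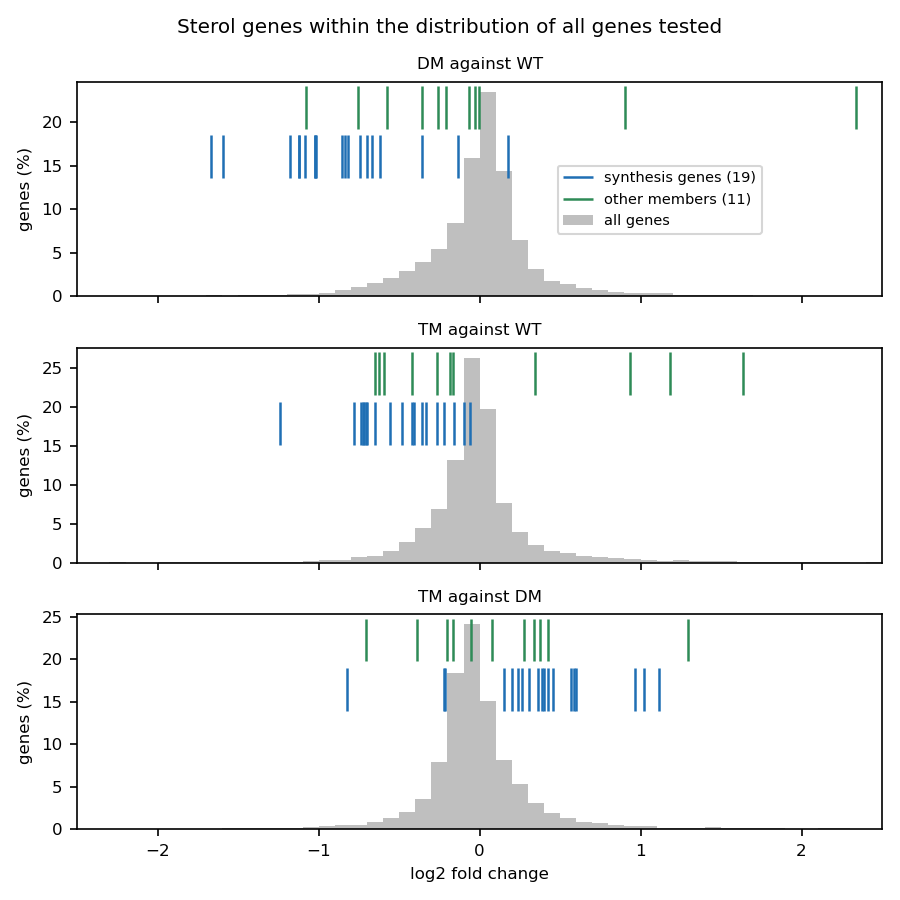
Log2 fold changes (x axis) of the 19 synthesis genes (blue ticks) and the 11 other members (green ticks) above the histogram of all 19938 genes (grey bars, percent of genes per bin, y axis), with a panel for each comparison. The synthesis genes lie mostly left of the bulk in DM against WT (median -0.86), less so in TM against WT (median -0.48), and right of it in TM against DM (median 0.39).

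The order of the genotypes was alike for many members. In 15 of the 30 members, and in 13 of the 19 synthesis genes, every WT array was above every TM array and every TM array above every DM array, an order found in 4.41% of all genes tested. The synthesis genes outside it were Ggps1, Fdft1, Cyp51, Nsdhl, Ebp and Dhcr7.

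The early steps lead from acetyl-CoA to farnesyl and geranylgeranyl pyrophosphate. Acly, which makes cytosolic acetyl-CoA from citrate, had mean log2 levels of 11.44 in WT, 11.08 in DM and 11.34 in TM and was called in no comparison. Hmgcs1, the cytosolic HMG-CoA synthase, had log2 levels of 11.47, 11.41 and 11.51 in the WT arrays, 10.23, 10.32 and 10.29 in DM, and 10.73, 10.73 and 10.75 in TM. The 3 genotypes did not overlap, with DM lowest and TM in between. Hmgcs1 was 2.27-fold lower in DM (log2 fold change -1.18, SE 0.055, adjusted p = 3.35e-09 by limma, the source of each adjusted p given) and 1.65-fold lower in TM (-0.72, adjusted p = 4.22e-07).

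Idi1, the isomerase that supplies dimethylallyl pyrophosphate, had the largest fall of the 30 members in DM. Its arrays were 11.42, 11.50 and 11.34 in WT, 9.68, 9.64 and 9.94 in DM, and 10.71, 10.59 and 10.85 in TM. Again no array of a genotype reached into another. The fall was 3.17-fold in DM (log2 fold change -1.67, SE 0.090, adjusted p = 1.5e-08) and 1.63-fold in TM (-0.70, adjusted p = 5.44e-05). A second probe set with the symbol Idi1 gave -1.66 in DM and -0.70 in TM.

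Between these enzymes, mevalonate is phosphorylated by MVK and PMVK and decarboxylated by MVD. Mvk had log2 levels of 10.47, 10.57 and 10.61 in WT, 9.79, 9.61 and 9.75 in DM, and 10.29, 10.19 and 9.96 in TM. The levels of Pmvk were 8.95, 8.80 and 8.93 in WT, 8.37, 8.24 and 8.21 in DM, and 8.52, 8.50 and 8.39 in TM. For Mvd they were 10.05, 9.95 and 10.20 in WT, 9.10, 9.04 and 8.99 in DM, and 9.43, 9.41 and 9.21 in TM. In all 3 genes WT was highest and DM lowest, with no overlap of arrays. Mvk fell by 0.83 on the log2 scale in DM (adjusted p = 6.47e-06), Pmvk by 0.62 (adjusted p = 1.07e-05) and Mvd by 1.02 (adjusted p = 5.04e-07). In TM Mvd was called too, at -0.72 (adjusted p = 1.54e-05), whereas Mvk at -0.41 and Pmvk at -0.42 stayed within 1.5-fold. Fdps, which joins isoprenoid units into farnesyl pyrophosphate, had arrays of 11.87, 12.01 and 11.85 in WT, 10.90, 10.69 and 10.77 in DM, and 11.39, 11.34 and 11.33 in TM, means and SDs (n = 3) being 11.91 ± 0.088, 10.79 ± 0.11 and 11.35 ± 0.034. Its genotypes were also apart. Fdps was 2.18-fold lower in DM (adjusted p = 5.06e-08), and its TM value of -0.56 lay just inside the fold limit. Ggps1 leaves the sterol branch and makes geranylgeranyl pyrophosphate for protein prenylation. Its log2 fold changes were -0.13 in DM (adjusted p = 0.205) and -0.36 in TM (adjusted p = 0.00299), neither of them called.

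**Figure D2:**
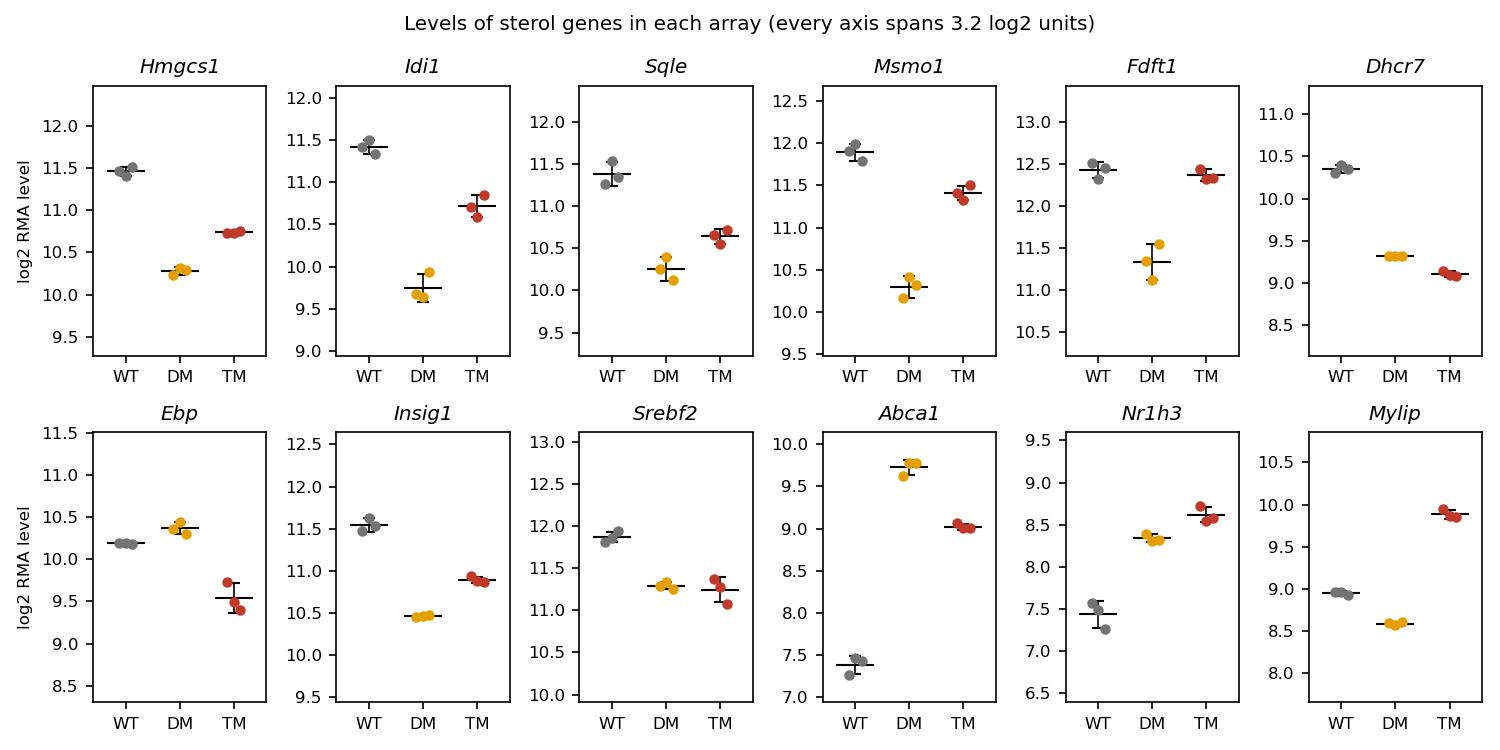
Log2 RMA levels (y axis, 3.2 log2 units in every panel) of 12 members in WT (grey), DM (orange) and TM (red) MEFs. Each point is 1 array, the horizontal mark gives the mean and the error bar the SD over 3 arrays. Hmgcs1, Idi1, Sqle, Msmo1 and Insig1 are lowest in DM with TM between, Fdft1 is low in DM alone, Ebp is low in TM alone, and Abca1 is high in DM (9.62 to 9.78) and TM (9.0 to 9.06).

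Squalene synthase, encoded by Fdft1, commits the pathway to sterols. Its log2 levels were 12.51, 12.32 and 12.45 in WT, 11.35, 11.12 and 11.55 in DM, and 12.44, 12.32 and 12.33 in TM. The DM arrays lay apart from the rest, and the WT and TM arrays overlapped. Fdft1 was 2.12-fold lower in DM (log2 fold change -1.09, SE 0.096, adjusted p = 1.63e-06), and its value in TM was -0.063 (SE 0.096, adjusted p = 0.702). The second Fdft1 probe set gave -0.93 in DM and -0.073 in TM.

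Squalene is next epoxidised by SQLE and closed into lanosterol by LSS. Sqle had log2 levels of 11.26, 11.53 and 11.34 in WT, 10.25, 10.40 and 10.12 in DM, and 10.66, 10.55 and 10.72 in TM, with no overlap between genotypes. It fell by 1.12 on the log2 scale in DM (adjusted p = 5.53e-07) and by 0.73 in TM (adjusted p = 3.03e-05). The arrays of Lss were 10.80, 10.80 and 10.84 in WT, 9.74, 9.77 and 9.88 in DM, and 10.08, 10.07 and 9.95 in TM, in the same order. Lss fell by 1.02 in DM (adjusted p = 4e-08) and by 0.78 in TM (adjusted p = 5.72e-07).

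Lanosterol then loses methyl groups. Msmo1, the methylsterol monooxygenase that acts at carbon 4, showed the widest gap between the mutants among the synthesis genes. Its arrays read 11.90, 11.99 and 11.79 in WT, 10.16, 10.41 and 10.32 in DM, and 11.41, 11.33 and 11.50 in TM, so that TM lay much nearer to WT than to DM. The fall was 3.02-fold in DM (log2 fold change -1.60, SE 0.079, adjusted p = 6.6e-09) and 1.4-fold in TM (-0.48, adjusted p = 0.000411), the latter within the fold limit. Cyp51, the lanosterol demethylase, had levels of 10.18, 10.40 and 10.40 in WT, 9.34, 9.83 and 9.58 in DM, and 10.15, 10.15 and 10.19 in TM, with WT and TM overlapping. It fell by 0.74 in DM (adjusted p = 0.000106) and was at -0.16 in TM (adjusted p = 0.305). Tm7sf2, a sterol reductase, had levels of 8.71, 8.93 and 8.94 in WT, 8.10, 8.20 and 8.19 in DM, and 8.67, 8.52 and 8.40 in TM. It fell by 0.70 in DM (adjusted p = 2.22e-05) and was at -0.33 in TM. Hsd17b7, a ketosteroid reductase of the same stretch, had levels of 10.81, 10.65 and 10.73 in WT, 10.02, 9.67 and 10.04 in DM, and 10.60, 10.47 and 10.45 in TM. For both, DM was lowest and TM lay between with no overlap. Hsd17b7 fell by 0.82 in DM (adjusted p = 1.53e-05) and was at -0.22 in TM (adjusted p = 0.0921).

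Nsdhl, a decarboxylating dehydrogenase at carbon 4, had levels of 11.45, 11.46 and 11.38 in WT, 10.70, 10.25 and 10.77 in DM, and 10.77, 10.67 and 10.74 in TM. Both mutants were below WT and overlapped each other. Nsdhl fell by 0.86 in DM (adjusted p = 4.26e-05) and by 0.71 in TM (adjusted p = 0.000248). Sc5d, the desaturase that makes 7-dehydrocholesterol, had levels of 11.34, 11.38 and 11.36 in WT, 10.66, 10.68 and 10.73 in DM, and 11.13, 11.02 and 11.12 in TM, in the common order. It fell by 0.67 in DM (adjusted p = 8.21e-07) and was at -0.27 in TM. With cyclic loess normalization the DM value of Sc5d was -0.58, just within the fold limit.

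Dhcr7 and Ebp departed from the common order. DHCR7 reduces 7-dehydrocholesterol to cholesterol, and its mRNA had log2 levels of 10.30, 10.39 and 10.35 in WT, 9.32 in each DM array to 2 decimals, and 9.14, 9.09 and 9.08 in TM. All TM arrays were below all DM arrays, and both mutants were far below WT. Dhcr7 was 2.04-fold lower in DM (log2 fold change -1.03, adjusted p = 9.91e-09) and 2.37-fold lower in TM (-1.24, adjusted p = 1.78e-09), the largest fall among the members in TM. In 4 members a pair of arrays of 1 genotype holds an identical value, Dhcr7 in DM, Hmgcs1 and Abca1 in TM and Mylip in WT, so their spread may be understated.

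Ebp encodes a sterol isomerase near the end of the pathway. Its log2 levels were 10.19, 10.20 and 10.18 in WT, 10.36, 10.44 and 10.30 in DM, and 9.74, 9.49 and 9.39 in TM. The TM arrays were below all others and the DM arrays slightly above WT. Ebp was 1.57-fold lower in TM (log2 fold change -0.65, SE 0.081, adjusted p = 4.27e-05), while the DM value was 0.18 (adjusted p = 0.108). Without TM replicate 3 the TM value was -0.57, within the fold limit. Ebp and Nsdhl lie on the X chromosome. Xist was high in all DM arrays and low in all others, so in their DM values this difference cannot be told apart from the genotype.

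**Figure D3:**
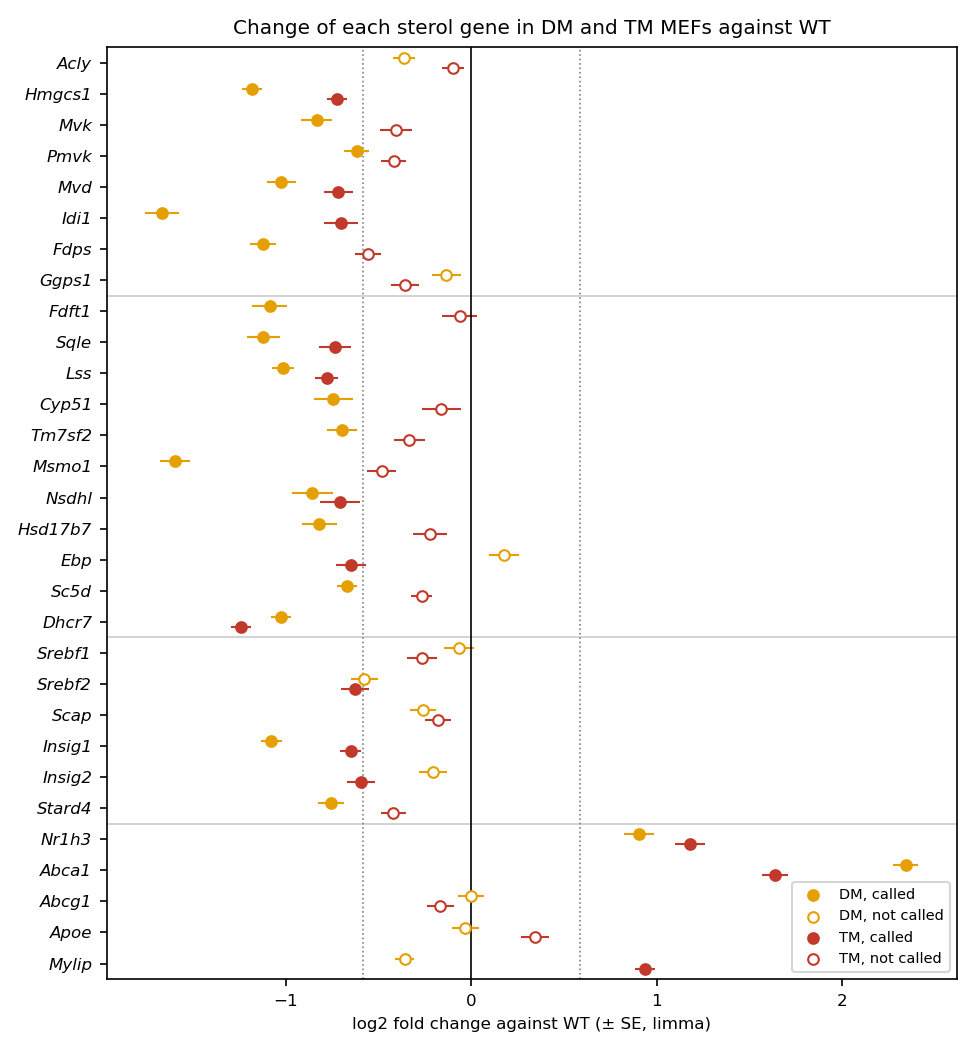
Log2 fold change of each of the 30 measured members against WT (x axis, ± SE from limma) in DM (orange) and TM (red), in pathway order from top to bottom with grey lines between early synthesis, squalene to cholesterol, SREBP regulation and LXR genes. Filled points are called, open points are not, and dotted lines mark 1.5-fold. DM points lie left of TM points for most synthesis genes, and Abca1 (2.34 and 1.64) and Nr1h3 (0.90 and 1.18) lie on the right.

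Genes that control the SREBPs also differed between the genotypes. Insig1, itself a target of the SREBPs and a brake on them, had log2 levels of 11.47, 11.63 and 11.53 in WT, 10.45, 10.47 and 10.48 in DM, and 10.93, 10.87 and 10.87 in TM. It followed the order of the synthesis genes with no overlap of arrays. Insig1 was 2.11-fold lower in DM (log2 fold change -1.08, SE 0.058, adjusted p = 1.39e-08) and 1.57-fold lower in TM (-0.65, adjusted p = 1.92e-06). Insig2, its paralog, had levels of 10.83, 10.88 and 10.68 in WT, 10.66, 10.44 and 10.67 in DM, and 10.20, 10.15 and 10.26 in TM. The TM arrays were the lowest. Insig2 was at -0.21 in DM (adjusted p = 0.0537) and was called lower in TM, at -0.59 (adjusted p = 6.15e-05). The TM call of Insig2 was lost with quantile normalization (-0.54) and without TM replicate 2 (-0.57), WT replicate 1 (-0.58) or WT replicate 2 (-0.55).

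Srebf2 encodes the SREBP that mainly drives cholesterol synthesis. Its log2 levels were 11.81, 11.86 and 11.94 in WT, 11.29, 11.33 and 11.26 in DM, and 11.37, 11.28 and 11.08 in TM. Both mutants lay below WT and overlapped each other. The TM value of -0.63 was called (adjusted p = 2.83e-05), and the DM value of -0.58 fell just short of 1.5-fold (adjusted p = 5.01e-05), so that the values lie on either side of the limit. The difference of TM from DM was -0.051 (SE 0.075, adjusted p = 0.635). The DM value passed without DM replicate 2 (-0.60) or WT replicate 1 (-0.61), and the TM value did not pass without TM replicate 3 (-0.55) or with quantile normalization (-0.58). Srebf1, whose product drives mainly fatty acid synthesis, was at -0.066 in DM and -0.27 in TM, and Scap at -0.26 and -0.18, with no call for either. Stard4, which carries sterol between membranes, had levels of 10.27, 10.25 and 10.15 in WT, 9.50, 9.33 and 9.57 in DM, and 9.83, 9.77 and 9.80 in TM, with DM lowest and no overlap. It fell by 0.76 in DM (adjusted p = 2.12e-06) and was at -0.42 in TM. In this group of 6 genes 2 were thus called lower in DM, against 5.67% of all genes, and 3 in TM, against 3.56%, with values below 0 for all 6 in both mutants.

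On the LXR side, Abca1 and Nr1h3 were higher than in WT in both mutants, where most synthesis genes were lower. Abca1, the cholesterol exporter, had log2 levels of 7.26, 7.46 and 7.44 in WT, 9.62, 9.77 and 9.78 in DM, and 9.06, 9.0 and 9.0 in TM. The 3 genotypes were apart, with DM highest and the WT level below the median of the arrays. Abca1 was 5.06-fold higher in DM (log2 fold change 2.34, SE 0.069, adjusted p = 4.67e-11) and 3.11-fold higher in TM (1.64, adjusted p = 1.61e-09), the largest change of any member in either comparison. Without detection calls it is not known whether the WT signals of Abca1 and Nr1h3, both below the array medians, were above background, and their folds may be understated.

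Nr1h3 encodes LXRα. Its arrays were 7.57, 7.48 and 7.26 in WT, 8.39, 8.31 and 8.32 in DM, and 8.72, 8.55 and 8.58 in TM. Every mutant array was above every WT array. Every TM array was also above every DM array, so Nr1h3, unlike Abca1, was highest in TM. The log2 fold change of TM against DM was 0.28 (adjusted p = 0.0189), within 1.5-fold. The rise was 1.87-fold in DM (log2 fold change 0.90, SE 0.080, adjusted p = 1.76e-06) and 2.27-fold in TM (1.18, adjusted p = 1.54e-07).

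Other genes of this branch did not follow Abca1. Abcg1, a further sterol exporter, had log2 levels of 7.55 to 7.94 over the 9 arrays and was called in no comparison, close to the array medians. Apoe, the apolipoprotein that accepts exported lipid, was at -0.032 in DM (adjusted p = 0.778) and 0.34 in TM (adjusted p = 0.00291), within 1.5-fold. Mylip encodes a ubiquitin ligase that sends lipoprotein receptors to degradation. Its log2 levels were 8.96, 8.96 and 8.92 in WT, 8.59, 8.57 and 8.60 in DM, and 9.94, 9.86 and 9.85 in TM. The DM arrays were the lowest and the TM arrays the highest, with no overlap. Mylip was 1.91-fold higher in TM (log2 fold change 0.94, SE 0.053, adjusted p = 2.88e-08), while its DM value was -0.36 (adjusted p = 0.000155), within the fold limit.

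The step from DM to TM, the loss of PRDX4 on the ERO1-deficient background in the design, was compared directly. Synthesis genes were on the whole higher in TM than in DM: 16 of 19 had a positive log2 fold change, with a median of 0.39, or 1.31-fold higher. Over the 30 members 5 were called higher, against 4.68% of all genes, and 2 lower, against 3.61%, and the median was 0.32 beside -0.046 over all genes. With no fold limit 20 members were higher at an adjusted p under 0.05, against 15.4% of all genes, and 5 were lower, against 16.5%. TM and DM cells also differ in Xist and in epithelial and fibroblast markers, so the loss of PRDX4 and other differences between these cell populations cannot be told apart.

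Msmo1 was 2.16-fold higher in TM than in DM (log2 fold change 1.11, SE 0.079, adjusted p = 2.64e-07), Fdft1 2.03-fold (1.02, SE 0.096, adjusted p = 3.54e-06) and Idi1 1.95-fold (0.96, SE 0.090, adjusted p = 3.42e-06). Hsd17b7 was called at 0.60 (adjusted p = 0.000284), a call lost with cyclic loess normalization (0.58) and without DM replicate 2 (0.48) or TM replicate 1 (0.55). Mylip had the largest difference, 2.45-fold higher in TM (log2 fold change 1.3, SE 0.053, adjusted p = 1.41e-09). In the other direction, Ebp was 1.77-fold lower in TM than in DM (-0.83, SE 0.081, adjusted p = 5.27e-06) and Abca1 1.63-fold lower (-0.70, SE 0.069, adjusted p = 5.54e-06). Cyp51 at 0.58 and Fdps at 0.57 lay at the edge of the limit. Cyp51 passed it without DM replicate 2 (0.71), TM replicate 1 (0.59) or TM replicate 2 (0.59), and Fdps without DM replicate 1 (0.63).

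**Figure D4:**
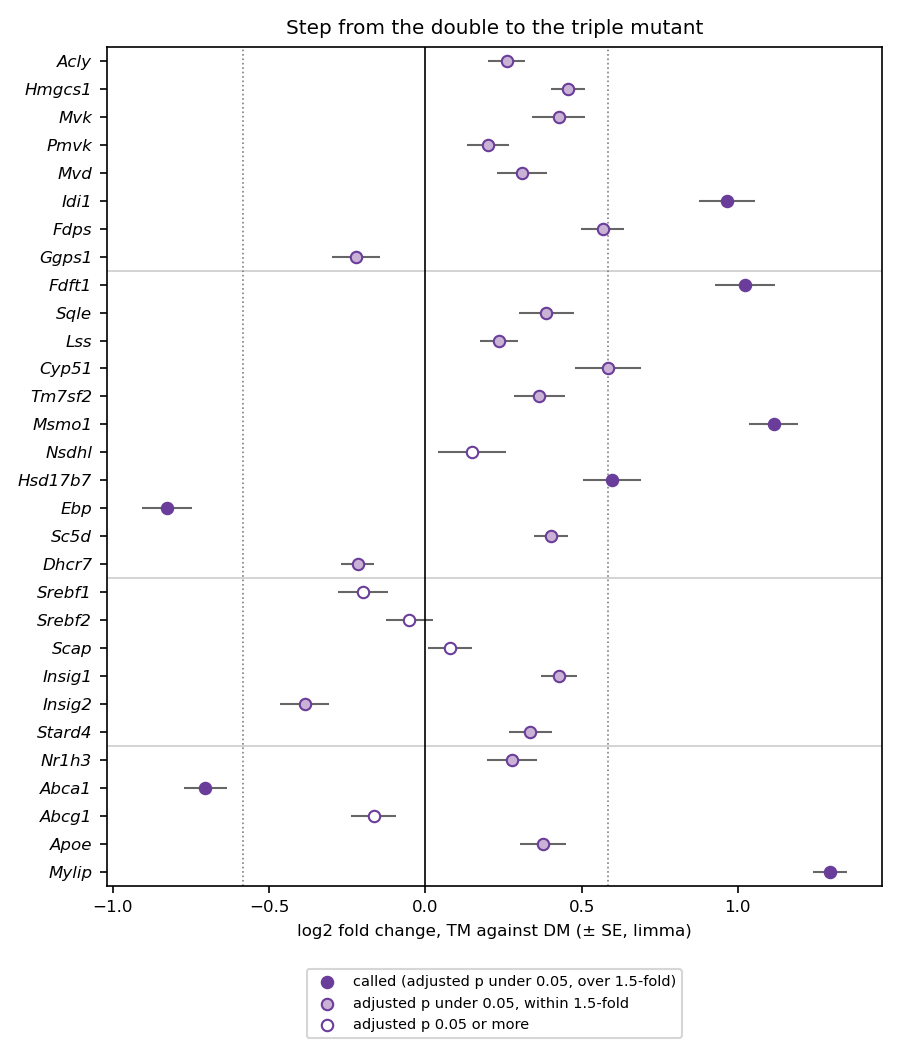
Log2 fold change of each measured member in TM against DM (x axis, ± SE from limma), in the same pathway order. Dark points are called, light points passed an adjusted p under 0.05 within 1.5-fold (dotted lines), and white points did not pass. Most synthesis genes lie right of 0, with Msmo1 (1.11), Fdft1 (1.02) and Idi1 (0.96) farthest, and Ebp (-0.83) lies left.

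Neighbouring lipid pathways were described by 5 further gene lists. The counts called in them stand beside the shares of all genes, which were 5.67% lower and 5.28% higher in DM, and 3.56% lower and 5.59% higher in TM. Fatty acid and lipid synthesis genes, many of them SREBP targets too, were followed first. Of 17 measured, 3 fell and 1 rose in DM (unadjusted p under 0.05 in 10 and 2), while 0 were called in TM by limma (unadjusted p under 0.05 in 10 lower and 1 higher). The single rise is near the share of all genes that rose. Scd1, the stearoyl-CoA desaturase, was 12.39, 12.25 and 12.30 in WT, 11.19, 11.31 and 11.37 in DM, and 12.11, 12.16 and 12.28 in TM, a pattern like that of Fdft1, with DM alone set apart. It fell by 1.02 on the log2 scale in DM (adjusted p = 1.35e-07) and was 0.90 higher in TM than in DM (adjusted p = 6.23e-07). Elovl6, a fatty acid elongase, fell by 0.84 in DM, and Aacs, which activates acetoacetate for lipid synthesis, by 0.59, while Mid1ip1 rose by 0.86. Fasn, the fatty acid synthase, was at -0.37 in DM and -0.25 in TM, within 1.5-fold. The median of the list was -0.19 in both mutants.

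Of 8 measured genes for SREBP cleavage and sterol sensing, 2 fell in DM, against 5.67% of all genes, and 1 in TM, against 3.56%. Tmem97, a sterol-regulated membrane protein, fell by 0.82 in DM (adjusted p = 3.65e-07) and by 0.60 in TM (adjusted p = 8.09e-06), and Erlin1, an ER membrane protein that binds cholesterol, fell by 0.69 in DM. Of 12 genes that use isoprenoids for dolichol, ubiquinone or protein prenylation, 1 fell in DM, Nus1, a subunit of the dolichol-making prenyltransferase, by 0.71 (adjusted p = 2.15e-05), a share near the 5.67% of all genes, while 0 were called in TM by limma (unadjusted p under 0.05 in 6 lower and 0 higher).

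Of 17 lipoprotein receptors and proteins of intracellular sterol transfer, 3 rose and 3 fell in DM (5.28% and 5.67% of all genes), and 3 rose and 2 fell in TM (5.59% and 3.56%). Scarb1, the HDL receptor, fell by 0.75 in DM (adjusted p = 1.58e-05) and by 0.92 in TM (adjusted p = 2.96e-06), and the lipoprotein receptor gene Lrp8 by 0.76 and 0.90. The receptor gene Vldlr went the other way, at 0.46 in DM, within 1.5-fold, and called higher in TM at 0.88 (adjusted p = 1.56e-07). Lipa, the lysosomal lipase that frees cholesterol from its esters, rose by 0.94 in DM (adjusted p = 2.11e-07) and 0.91 in TM (adjusted p = 3.16e-07). Stard5, a sterol-binding START protein, rose by 1.13 in DM and was at 0.53 in TM. Gramd1b, which moves sterol from the plasma membrane to the ER, rose by 0.62 in DM, where its 3 arrays hold an identical value, and by 1.43 in TM.

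Other LXR targets and oxysterol enzymes formed a list of 12 measured genes. In DM 5 rose, against 5.28% of all genes, and 1 fell, against 5.67%, and in TM 5 rose, against 5.59%, and 1 fell, against 3.56%, so that the falls were near those shares. Ch25h, the enzyme that makes 25-hydroxycholesterol, had log2 levels of 6.52, 6.87 and 7.01 in WT, 9.73, 9.63 and 9.73 in DM, and 10.23, 10.06 and 10.17 in TM. The WT arrays were below the array medians and every mutant array was well above them. The log2 difference from WT was 2.90 in DM (SE 0.10, adjusted p = 3.09e-10) and 3.35 in TM (adjusted p = 1.03e-10). The values used here carry no detection calls, so it is not known whether the WT signal of Ch25h, or that of Lpl, Cyp7b1 and Smpdl3a, was above background, and their differences from WT may understate the change. Cyp7b1, which hydroxylates oxysterols on the way to their removal, rose by 1.13 in DM and 2.12 in TM.

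Lpl, the lipoprotein lipase gene, had arrays of 6.78, 6.31 and 6.75 in WT, 10.41, 10.27 and 10.43 in DM, and 7.62, 7.53 and 7.62 in TM. Only DM lay far above the median signal. The log2 difference from WT was 3.75 in DM (adjusted p = 3.44e-11) and 0.98 in TM (adjusted p = 1.4e-05). Pltp, the phospholipid transfer protein gene, rose by 0.92 and 1.10, and Smpdl3a by 0.87 (a pair of its DM arrays identical) and 1.52, whereas Mertk, a receptor for dying cells, fell by 0.71 and 0.88. Beside Abca1 and Lpl, the adipocyte regulator Pparg was 8.08 in WT, 10.26 in DM and 9.5 in TM, while Adipoq lay at 5.62 to 5.78 and Plin1 at 7.36 to 7.69 over the 9 arrays, uncalled in all comparisons. Fabp4 was at -0.25 in DM and 0.48 in TM against WT, uncalled, and 0.72 higher in TM than in DM (adjusted p = 3.27e-05), and Cidec and Lep were called in no comparison. The summed signal of the 6 adipocyte markers, of which Pparg alone was called against WT, was 9.59 to 9.67 in WT, 10.72 to 10.83 in DM and 10.26 to 10.36 in TM (log2 of the sum), and that of the 6 leukocyte markers 10.11 to 10.16, 9.88 to 10.02 and 10.06 to 10.20.

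**Figure D5:**
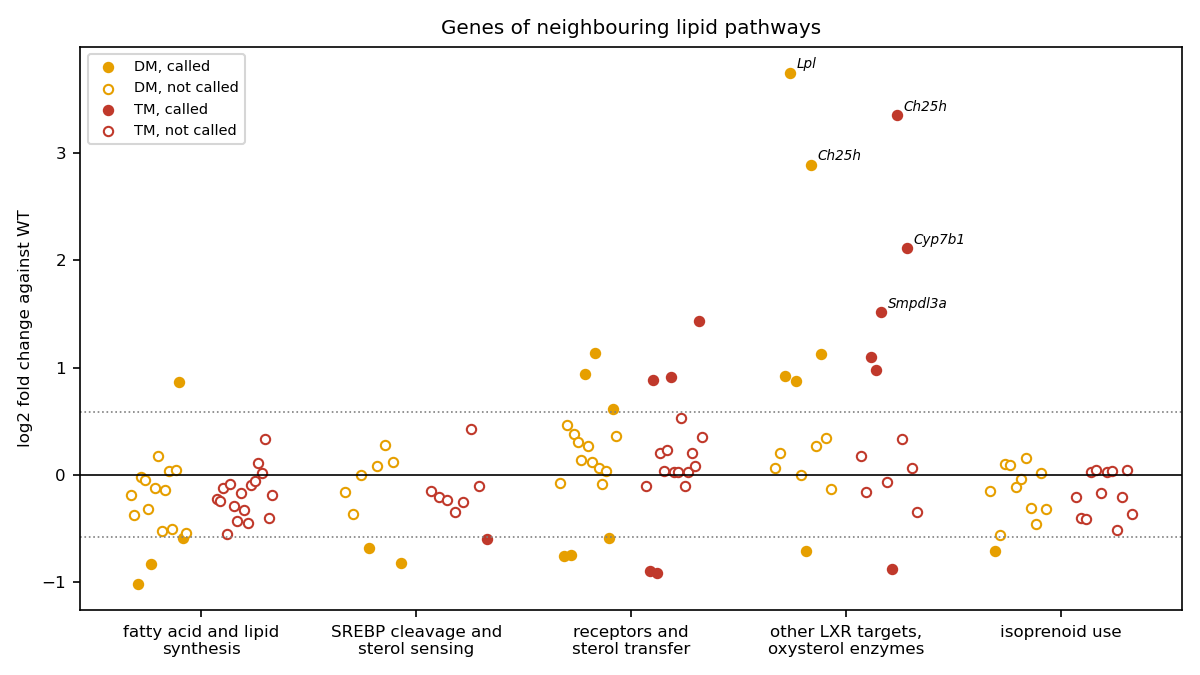
Log2 fold changes against WT (y axis) of the genes of 5 neighbouring lists (x axis) in DM (orange) and TM (red). Each point is a gene, filled where called, with dotted lines at 1.5-fold and names for genes beyond 1.5. Lpl (3.75 in DM) and Ch25h (2.90 in DM and 3.35 in TM) stand highest, and the fatty acid genes lie mostly within the dotted lines.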

How the data were processed

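RNA was measured on Affymetrix Gene ST 1.0 arrays, 3 of each genotype, grouped by the sample titles. The values the authors deposited are log2 values made by RMA, according to the submitters' processing notes. RMA corrects background, normalizes arrays to each other and summarises probes, so overall shifts between genotypes were removed before deposit. The number of arrays limits the precision. Of 35556 probe sets 21789 have 1 symbol, and the brightest per gene left 19938 genes. Probe sets with several symbols (1621) or no listing (12146) were not named. All 9 arrays were fitted with limma 3.58.1 in R 4.3.3, a fit first tested on simulated data. Calls took a Benjamini-Hochberg adjusted p under 0.05 over all genes and a change over 1.5-fold, the fold threshold of the study's methods. The members, the further lists, markers and motifs were chosen with earlier results of these data known, so no list was tested as a whole. All members were described, with every array for those called. Of each further list at most 4 called genes per comparison were named, those with the largest change. Fasn, Vldlr, Mertk, Epcam, Ptprc, Cd68, Cd14, Adipoq, Plin1, Cidec and Lep were added after their values were seen. Alternatives covered scaling, dim probe sets, probe set choice, variance model, test, fold limit, single arrays and a replicate block.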

Additional observations from a re-analysis of the deposited data

How the results depend on the processing

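No member's call changed direction under any of the 21 alternatives, and of 1890 values of single genes 8 had the other sign, none of them called. Calls stayed on the same side of the limits with the 6 arrays of a comparison and with a trended or robust variance. The same held with dim probe sets left out, the mean of all probe sets, and an unpaired Student's t-test with Benjamini-Hochberg adjustment. No member was among the dim probe sets, and only 2 members have several probe sets, so the first and second of these could change few calls. The study's methods took forward genes that passed under both RMA and a second summary, PLIER, which was not run here. Median centring gave median log2 fold changes of -0.79 in DM and -0.46 in TM against WT, and cyclic loess -0.35 in TM against WT with 7 members lower. With no fold limit 20 members were lower in TM against WT, and 20 higher and 5 lower in TM against DM. With a 2-fold limit 1 was higher and 10 lower in DM against WT, 1 lower in TM against WT, and 3 higher and 0 lower in TM against DM. Quantile normalization left 9 members lower in TM against WT. Median centring also called Fdps lower in TM and Srebf2 lower in DM, and Cyp51 and Fdps higher in TM than in DM.

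Leaving out single arrays gave 18 to 19 members lower in DM against WT with medians of -0.75 to -0.67, 9 to 12 lower in TM against WT with medians of -0.44 to -0.39, and 5 to 6 higher in TM against DM with medians of 0.28 to 0.34. Fdps was called lower in TM (-0.59) without WT replicate 3. The replicate numbers pair no samples by any label, and same-numbered arrays had deviations correlated at -0.24 to 0.17 (9 pairs), each array correlating best with its own number in 1 of 9 cases. With the replicate block 18 members were lower in DM against WT, 11 lower in TM against WT and 5 higher in TM against DM, as without it.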
